A study of Mus musculus with 10 samples.

Results

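The 80 genes described here encode subunits of the 5 enzyme complexes of oxidative phosphorylation that are transcribed from the nuclear genome. They were chosen by symbol alone, as the genes whose name begins with Nduf followed by a, b, c, s or v and a number, Sdha to Sdhd, Uqcr, Cyc1, Cox4 to Cox8 followed by a, b or c, or Atp5, and where a gene had several probe sets the one with the greatest average over the 10 arrays was read. They make up 80 of the 18193 genes measured: 35 belong by symbol to complex I, 4 to complex II, 9 to complex III, 15 to complex IV and 17 to complex V. The livers came from 10 male B6C3F1/Crl mice, the offspring of C57BL/6 males and C3H/He females, which were 29 to 32 days old when received and had 5 days to settle before they were split at random. Phenobarbital was given to 5 of them in the water they drank at 0.05% (w/v) for 28 days, and the other 5, of the same strain, sex and age, were the controls. The series compares these treated and untreated livers, and each array carries the RNA of 1 whole liver, so cells of every hepatic type contribute to a value. In such bulk RNA, fewer cells of a type and less RNA per cell cannot be told apart.

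Oxidative phosphorylation takes place in the inner mitochondrial membrane. Complex I (NADH dehydrogenase) and complex II (succinate dehydrogenase) pass electrons from fuel oxidation to ubiquinone, complex III hands them to cytochrome c, complex IV (cytochrome c oxidase) passes them to oxygen, and complex V (ATP synthase) makes ATP from the proton gradient that complexes I, III and IV build. Most subunits are nuclear genes, a few are encoded in mitochondrial DNA, and complex II is wholly nuclear. Hepatocytes are rich in mitochondria, and their nuclear subunit genes are known to be controlled by NRF1, GABP, YY1 and the oestrogen-related receptors together with the coactivators PGC-1alpha (Ppargc1a) and PGC-1beta (Ppargc1b). Phenobarbital activates the nuclear receptor CAR, whose best known target in mouse liver is Cyp2b10.

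The promoters of 5 of these genes are shown here, with the motifs of those regulators. Of these, 4 belong to called genes that held a motif, and that of Sdhd holds 3 of the 4 motifs. RefSeq windows on GRCm38.p6, running from 250 bases before to 50 bases after a gene's start, were at hand for 66 of the 80 genes. The motif letters searched on both strands were GCGCA and GCGC with 1 base between them for NRF1, CCGGAAG for GABP and other ETS factors, AAGATGGCG for YY1 and TCAAGGTCA for the oestrogen-related receptors (ERR). The NRF1 letters were in the windows of 15 of 66 subunit genes (22.7%) against 5.19% of all genes with a window. The GABP letters were in 17 of 66 (25.8%) against 9.93%, the YY1 letters in 6 of 66 (9.09%) against 1.64%, and the ERR letters in 2 of 66 (3.03%) against 0.466%. In all, 33 of the 66 held at least 1 of the 4 motifs, against 15.5% of all genes with a window. These shares were not matched on base composition, and a match is a run of letters, not a measured binding site. Of the 7 called genes with a window, Ndufb11 and Cox7b2 held none of the motifs, and Ndufs8, not printed here, held GABP letters. In the windows below each gene reads 5′ to 3′ on its own strand, and the capitals mark the motif matches, none of which overlaps another. Uqcrc1 (chr9:108936398-108936697, plus strand) has NRF1 letters starting 6 and 31 bases after the start; Ndufa8 (chr2:36049289-36049588, minus strand) has them 30 bases before it. Atp5h (chr11:115419870-115420169, minus strand) has NRF1 letters 141 bases and GABP letters 38 bases before the start, and Ndufb7 (chr8:83566508-83566807, plus strand) has GABP letters 20 bases before it. Sdhd (chr9:50603800-50604099, minus strand), the gene of a complex II membrane anchor that was not called, has NRF1 letters 79 and GABP letters 46 bases before the start and ERR letters 37 bases after it.
Uqcrc1: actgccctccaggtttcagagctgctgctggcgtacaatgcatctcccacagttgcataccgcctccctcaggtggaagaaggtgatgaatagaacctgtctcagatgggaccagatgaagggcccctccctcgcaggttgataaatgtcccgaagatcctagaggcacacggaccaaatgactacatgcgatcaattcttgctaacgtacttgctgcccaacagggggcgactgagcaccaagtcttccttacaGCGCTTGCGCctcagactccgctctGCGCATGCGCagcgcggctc
Ndufa8: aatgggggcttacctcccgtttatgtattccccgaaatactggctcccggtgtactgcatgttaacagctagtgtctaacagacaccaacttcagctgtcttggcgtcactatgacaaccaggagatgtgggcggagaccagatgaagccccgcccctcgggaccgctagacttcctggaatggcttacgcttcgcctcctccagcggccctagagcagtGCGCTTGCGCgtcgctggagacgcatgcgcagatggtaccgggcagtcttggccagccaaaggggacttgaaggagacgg
Atp5h: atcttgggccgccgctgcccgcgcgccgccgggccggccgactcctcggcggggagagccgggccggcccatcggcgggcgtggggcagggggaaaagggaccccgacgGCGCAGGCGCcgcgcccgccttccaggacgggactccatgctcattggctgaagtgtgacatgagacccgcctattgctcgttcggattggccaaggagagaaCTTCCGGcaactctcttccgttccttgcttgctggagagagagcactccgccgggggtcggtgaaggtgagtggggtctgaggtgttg
Ndufb7: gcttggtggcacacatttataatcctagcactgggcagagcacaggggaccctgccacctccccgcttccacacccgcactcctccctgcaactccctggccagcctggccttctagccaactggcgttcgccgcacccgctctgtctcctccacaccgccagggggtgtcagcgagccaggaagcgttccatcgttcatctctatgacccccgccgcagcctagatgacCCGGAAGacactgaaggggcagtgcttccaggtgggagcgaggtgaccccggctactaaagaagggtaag
Sdhd: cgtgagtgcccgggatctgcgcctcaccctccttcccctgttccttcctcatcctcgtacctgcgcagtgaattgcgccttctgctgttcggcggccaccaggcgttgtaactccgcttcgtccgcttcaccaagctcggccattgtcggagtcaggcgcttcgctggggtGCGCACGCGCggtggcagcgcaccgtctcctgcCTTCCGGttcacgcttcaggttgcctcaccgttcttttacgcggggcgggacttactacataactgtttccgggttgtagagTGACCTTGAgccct

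The values are the log2 expression levels that the authors deposited, 1 per probe set and array. A difference of 1 is a 2-fold change, and a gene is called higher or lower here where the adjusted p of the limma fit over all 18193 genes was under 0.05. Cyp2b10 rose from 6.47 ± 0.66 (SD, n = 5) in controls to 13.52 ± 0.04 (SD, n = 5) in treated livers, with no overlap, so the treatment labels held. The 6 hepatocyte markers measured had means between 12.64 and 14.97 and none was called, and no kidney marker had a mean above 5.93. The arrays fell into sets by their poly-A spike-ins, which are bacterial RNAs put into each sample ahead of labelling: the mean of the 24 spike-in probe sets was 7.77 to 8.64 on control replicates 1, 2, 3 and 5, but 6.40 on control replicate 4 and 5.76 to 6.58 on the treated arrays. RNA quality measures moved as well. The difference between the 3′ and 5′ probe sets of beta-actin was 1.46 to 1.78 on the controls with high spike-ins, 1.28 on control replicate 4 and 1.19 to 1.33 on treated arrays, and that of Gapdh was -0.15 to -0.03 on all controls and -0.28 to -0.21 on treated arrays. Their part in the subunit values was not tested. A fit with this spike-in set as a block, in which control replicate 4 alone stands for the controls among the low arrays, left 143 of 18193 genes called (0.786%), so most single calls below were not separable from that split. The effect of phenobarbital and whatever the spike-in set marks cannot be told apart beyond what that 1 animal shows. Of the cell types other than hepatocytes, markers of stellate cells and fibroblasts were lower in treated livers in 4 of 7 cases (57.1%, where 11.3% of all genes were lower) and none was higher; their summed level was 12.56 to 12.66 in controls and 11.84 to 12.34 in treated livers. Endothelial markers were lower in 4 of 7 cases as well, with a summed level of 11.55 to 11.90 in controls and 11.11 to 11.55 in treated livers. The median change of the stellate and fibroblast markers was -0.43, and -0.50 with the block. That of the endothelial markers was -0.30, and -0.29 with the block. Epcam, 1 of 4 cholangiocyte markers, was called higher by 0.54, and Alas2, 1 of 2 erythroid markers, by 0.38. Ly6d, 1 of 8 Kupffer cell and leukocyte markers, was called higher by 0.50, where 9.02% of all genes were higher. With the block their changes were 0.19, 0.07 and 0.33. No other marker of these lists was called, and the list medians were -0.035, 0.20 and -0.022. Summed Kupffer cell and leukocyte levels were 10.55 to 11.01 in controls and 10.55 to 10.94 in treated livers. The part of these shifts in the subunit values was not tested.

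As a group the subunit genes stayed close to their control level. Of the 80, 9 were called (11.2%), 4 higher and 5 lower, where 20.3% of all genes were called, 9.02% higher and 11.3% lower. Their median log2 change was -0.01, against 0.01 for all genes, with 39 above 0 and 41 below. The changes ran from -0.42 for Cox7a1 to 0.34 for Cox6a2 and Cox7b2, so none reached 2-fold, as was the case for all but 115 of the 18193 genes. The median size of a change, whatever its sign, was 0.084 among the subunits and 0.132 among all genes. A p that misses the threshold does not show that a gene was unchanged, and the intervals give the range of changes that each fit allows. The 95% interval of the log2 change lay within ±0.3 (1.23-fold) for 59 of the 80 genes and within ±0.5 (1.41-fold) for 75. With the spike-in set as a block, where the median SE was 0.100 in place of 0.062, these counts were 42 and 75. The subunits lay high on the arrays, with 70 of 80 at a mean level of 10 or more and the other 10 below 8. Among these 70, 2 were called higher and 5 lower, where 27.2% of all genes at a mean level of 10 or more were called, 11.2% higher and 15.9% lower. With the spike-in set as a block no subunit was called, against 0.786% of all genes, and their median was -0.05, against -0.04 for all genes; with the spike-in mean as a covariate none was called either, against 0.709%.

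**Figure D1:**
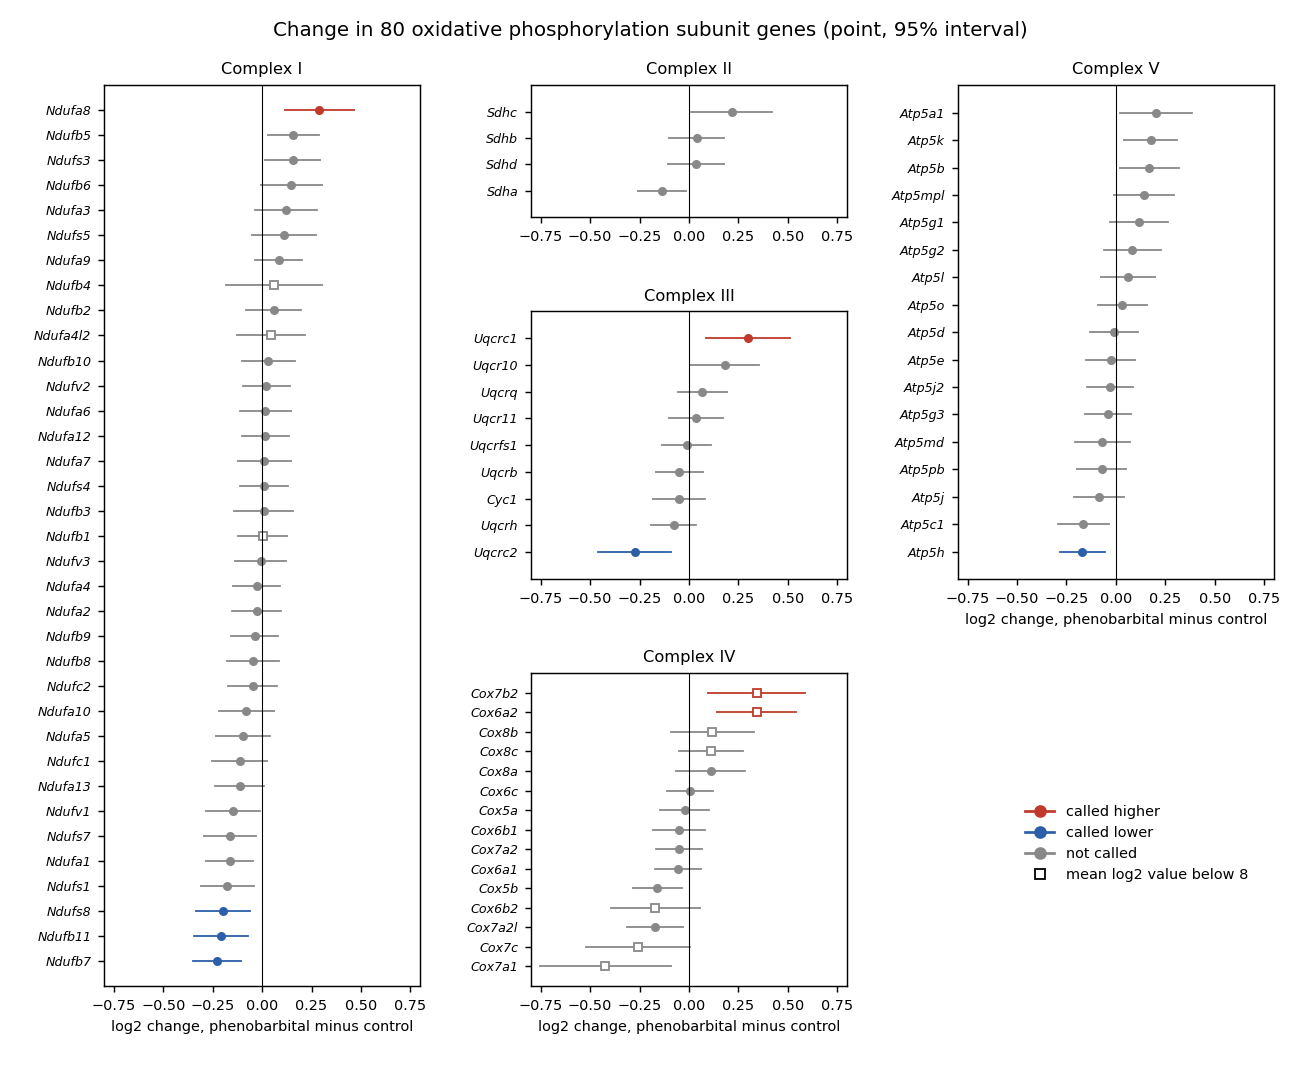
Log2 change (phenobarbital minus control, x axis) of each of the 80 subunit genes, with its 95% interval from limma, in a panel per complex. Red points were called higher, blue lower and grey not called, and open squares mark genes with a mean log2 value below 8. The points spread on both sides of 0 in each complex, from -0.42 (Cox7a1) to 0.34 (Cox6a2, Cox7b2).

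The mean level of each complex showed the same closeness array by array. Averaged over all 80 genes, the controls lay between 11.55 and 11.67 and the treated livers between 11.56 and 11.64, so the groups overlapped fully. The complex I mean was 11.55 ± 0.05 (SD, n = 5) in controls and 11.54 ± 0.03 (SD, n = 5) in treated livers. The complex II mean was 11.98 ± 0.08 and 12.02 ± 0.05, and that of complex III 12.62 ± 0.05 and 12.64 ± 0.03 (SD, n = 5 each). For complex IV the means were 9.70 ± 0.05 and 9.68 ± 0.04, and for complex V 12.82 ± 0.04 and 12.84 ± 0.03 (SD, n = 5 each). In every complex the group means thus differed by less than the spread between animals.

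**Figure D2:**
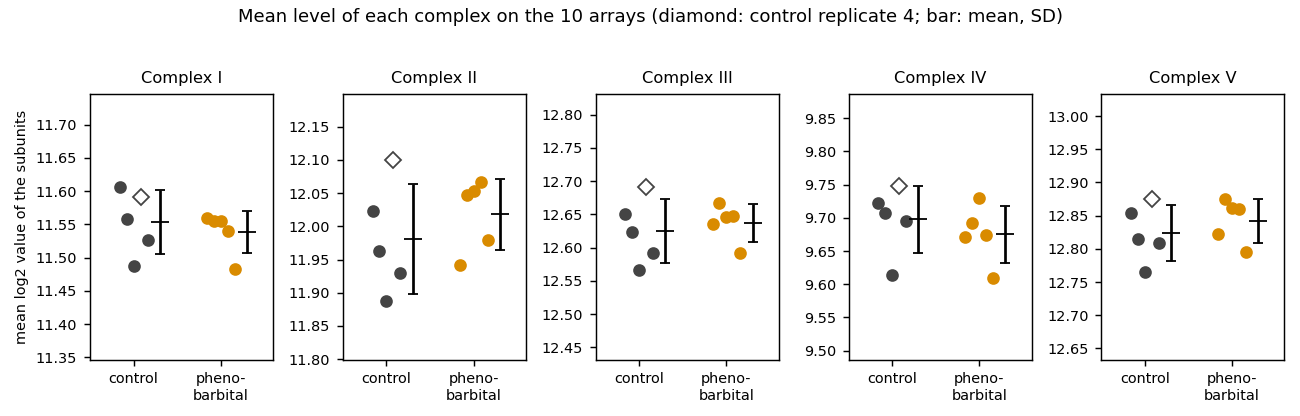
Mean log2 value of the subunits of each complex (y axis, on its own range in each panel) on every array, by group, with the mean and SD (n = 5) beside the points. The open diamond is control replicate 4. The control and treated points overlap in all 5 panels, as in complex I, where the means are 11.55 and 11.54.

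Complex I held 4 of the 9 called genes, 3 lower and 1 higher, and its median change over 35 genes was 0.00. Ndufb7, a small accessory subunit with cysteine motifs on the intermembrane side, was 12.12, 12.07, 12.04, 11.95 and 12.05 in control replicates 1 to 5 and 11.82, 11.83, 11.84, 11.85 and 11.75 in treated replicates 1 to 5. Every treated liver was below every control, and the gene fell by 0.23 on the log2 scale (SE 0.057, adjusted p = 0.0158), a 1.17-fold difference. It was the only one of the 9 called genes that stayed called when each of the 10 animals was left out in turn. Ndufb11, an accessory subunit of the membrane arm, read 13.13, 13.08, 13.11, 12.88 and 13.07 in controls and 12.88, 12.84, 12.87, 12.82 and 12.82 in treated livers. Here the control replicate 4 value equalled the highest treated value, and the fall of 0.21 (SE 0.063, adjusted p = 0.0340) came to -0.03 with the spike-in set as a block. Ndufs8, a core subunit that carries iron-sulfur clusters, read 12.79, 12.61, 12.61, 12.68 and 12.74 in controls and 12.56, 12.53, 12.49, 12.47 and 12.39 in treated livers. The groups did not overlap, the gene fell by 0.20 (SE 0.062, adjusted p = 0.0404), and the blocked change was -0.19, close to the unblocked value, but with an adjusted p of 0.480.

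Ndufa8, an accessory subunit of the intermembrane side, moved the other way. It read 11.39, 11.32, 11.01, 11.34 and 11.30 in controls and 11.57, 11.64, 11.65, 11.52 and 11.43 in treated livers, so each treated liver was above each control and control replicate 3 was the lowest of all. It rose by 0.29 (SE 0.080, adjusted p = 0.0236), a 1.22-fold difference, and by 0.22 with the block (adjusted p = 0.527). Among the uncalled complex I genes, Ndufa1, needed for assembly of the membrane arm, was 13.28 to 13.36 in controls and 13.11 to 13.22 in treated livers, a change of -0.16 with an adjusted p of 0.0509. Ndufs1, the large iron-sulfur subunit, was 10.83 to 10.98 and 10.63 to 10.82, a change of -0.18 with an adjusted p of 0.0633. Neither gene's groups overlapped, nor did those of Ndufa13 (-0.11) and Ndufa9 (0.08), a subunit bound near the quinone site. Ndufa4, which carries a complex I symbol but is known to sit in complex IV, was 13.39 ± 0.05 in controls and 13.36 ± 0.02 in treated livers (SD, n = 5 each), a change of -0.03 with an adjusted p of 0.749. Ndufb1, Ndufb4 and Ndufa4l2 had means below 8 and changes of 0.00, 0.06 and 0.04; Ndufb1 and Ndufb4, whose proteins belong to the complex in most tissues, had no other probe set.

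No complex II gene was called on its brightest probe set. Sdha, the flavoprotein that oxidises succinate, read 12.52, 12.57, 12.49, 12.52 and 12.49 in controls and 12.36, 12.36, 12.48, 12.38 and 12.32 in treated livers. Its groups just failed to overlap, and the change was -0.14 (SE 0.056, adjusted p = 0.0995). A probe set of Sdha nearly as bright averaged 12.38 in both groups. Its dim probe sets, at mean levels of 3.73 and 4.50, were called in opposite directions when tested singly, at 0.37 and -0.40. Sdhb, the iron-sulfur subunit, was 12.77 ± 0.10 in controls and 12.81 ± 0.04 in treated livers, and Sdhd, the anchor whose promoter is printed above, 12.02 ± 0.10 and 12.05 ± 0.06 (SD, n = 5 each). Sdhc, the other anchor, was 10.45 to 10.87 in controls and 10.58 to 11.02 in treated livers, a change of 0.22 with an adjusted p of 0.122. Its highest control was replicate 4, and with the block the change was -0.04. Its other probe set, at a mean level of 9.35, was called higher when probe sets were tested singly, by 0.41 (adjusted p = 0.00597 over all probe sets).

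Complex III gave a pair of called genes with opposite signs, although their products, the core proteins UQCRC1 and UQCRC2, sit together on the matrix side of the complex. Uqcrc1 read 11.89, 11.82, 11.53, 12.11 and 11.89 in controls and 12.02, 12.30, 12.13, 12.23 and 12.05 in treated livers, and rose by 0.30 (SE 0.098, adjusted p = 0.0481). Uqcrc2 read 12.24, 12.45, 12.42, 12.00 and 12.18 in controls and 12.08, 11.89, 12.01, 11.97 and 11.97 in treated livers, and fell by 0.27 (SE 0.086, adjusted p = 0.0391). In both genes control replicate 4 lay within the treated range, as the highest control of Uqcrc1 and the lowest of Uqcrc2. With the spike-in set as a block the changes were 0.04 and -0.02, and with the spike-in mean as a covariate the signs turned, to -0.01 and 0.04. The other 7 genes were not called. Uqcrb, which binds ubiquinone, was 14.34 ± 0.04 in controls and 14.29 ± 0.05 in treated livers, and Uqcrq 13.07 ± 0.07 and 13.13 ± 0.02 (SD, n = 5 each). Uqcr10, a small subunit, changed by 0.18 with an adjusted p of 0.128 and by -0.07 with the block. Uqcrh, the hinge protein that helps cytochrome c dock, varied little within a group: 12.65 to 12.67 in controls and 12.54 to 12.60 in treated livers, with no overlap, a change of -0.08 (SE 0.052) and an adjusted p of 0.304.

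In complex IV, none of the 8 genes with a mean level of 10 or more was called, and both calls fell on isoforms of other tissues. Cox6a2, the heart and skeletal muscle form of subunit VIa, read 6.46, 6.48, 6.32, 6.76 and 6.79 in controls and 6.86, 7.02, 6.80, 6.92 and 6.92 in treated livers. Its groups just failed to overlap, and the change was 0.34 (SE 0.092, adjusted p = 0.0217), a 1.27-fold rise, or 0.14 with the block. Cox7b2, a form of subunit VIIb known from testis, read 3.73, 3.79, 3.47, 3.97 and 3.91 in controls and 4.32, 4.05, 4.06, 4.33 and 3.82 in treated livers, values near the bottom of the scale, with 2 controls above the lowest treated liver. Its change was also 0.34 (SE 0.113, adjusted p = 0.0489), or 0.15 with the block. Of the 6 muscle markers measured, all had means between 3.34 and 5.71. Their summed level was 7.23 to 7.38 in controls and 7.31 to 7.38 in treated livers. Tnnt3, a troponin of fast muscle, was called higher (0.40), where 9.02% of all genes were higher. The other 5 were not called, and the median change of the 6 was 0.03. The part of muscle RNA in the Cox6a2 value was not tested. The liver forms of subunits VIa and VIIa were not called: Cox6a1 was 14.25 ± 0.03 in controls and 14.19 ± 0.04 in treated livers, and Cox7a2 13.57 ± 0.04 and 13.52 ± 0.03 (SD, n = 5 each).

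On the brightest probe sets, the largest change of any subunit gene, that of the muscle form Cox7a1, did not pass the test. It read 6.64, 6.69, 6.01, 6.25 and 5.91 in controls and 5.67, 5.89, 6.19, 5.93 and 5.70 in treated livers, so the groups overlapped, and the change was -0.42 with an SE of 0.153 and an adjusted p of 0.0667. Of all 9 tissue-restricted isoforms listed, 2 were called higher and none lower, where 9.02% of all genes were higher and 11.3% lower. Their median change was 0.11. The list included Atp5g1, a subunit c gene of complex V that read high in these livers, at a mean of 12.60. Cox6b2, Cox8b and Cox8c, forms known from testis or muscle, changed by -0.17, 0.12 and 0.11 without a call. Cox7c was read from a probe set with a mean below 8 and changed by -0.26 with an adjusted p of 0.152, although its protein is part of the complex in all tissues. Cox5b, the zinc-binding subunit, was 13.49 to 13.63 in controls and 13.32 to 13.45 in treated livers, without overlap, at -0.16 and an adjusted p of 0.0617. Cox7a2l, whose product links complexes III and IV, changed by -0.17 with an adjusted p of 0.0763. Cox4i1, the ubiquitous form of subunit IV, lies outside the symbol rule and changed by 0.04 with an adjusted p of 0.604.

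Complex V had 1 called gene of 17. Atp5h, subunit d of the peripheral stalk, read 13.39, 13.40, 13.42, 13.36 and 13.38 in controls and 13.25, 13.20, 13.22, 13.23 and 13.20 in treated livers. Each treated liver was below each control, and the gene fell by 0.17 (SE 0.052, adjusted p = 0.0364), a 1.12-fold difference; the blocked change was -0.14 with an adjusted p of 0.530. The catalytic beta subunit, Atp5b, was 13.30 to 13.63 in controls and 13.54 to 13.65 in treated livers, and the alpha subunit, Atp5a1, 12.84 to 13.32 and 13.24 to 13.38. The highest control of both genes was replicate 4; the changes of 0.17 and 0.20 had adjusted p of 0.101 and 0.106 and were -0.04 and -0.01 with the block. Atp5k, subunit e of the membrane part, was 12.67 to 12.86 and 12.90 to 13.04, without overlap, at 0.18 and an adjusted p of 0.0600. The genes of subunit c, which forms the proton-driven ring, were not called: Atp5g1 changed by 0.12, Atp5g2 by 0.08 and Atp5g3 by -0.04.

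Across the 80 genes, the groups did not overlap in 13, where 12.9% of all genes had groups that did not overlap. Of these 13, 5 were called and 8 were not: Ndufs1, Ndufa1, Ndufa13, Ndufa9, Sdha, Uqcrh, Cox5b and Atp5k, named here after their values were seen. Control replicate 4, the one control with low spike-ins, lay within the treated range in 4 of the 9 called genes (Ndufb11, Uqcrc1, Uqcrc2 and Cox7b2). It was nearer the treated mean than the mean of the other controls in 5 of the 9 (55.6%), where this held for 35.8% of all called genes. Without that animal 22 subunits were called (27.5%, where 25.3% of all genes were), 13 higher and 9 lower. All 9 named above were among them. The 13 that joined were Atp5a1, Atp5b, Atp5k, Ndufa3, Ndufb5, Ndufb6, Ndufs3, Sdhc and Uqcr10, which were higher, and Atp5c1, Cox7a2l, Ndufa1 and Ndufs7, which were lower. Without phenobarbital replicate 2 only 1 subunit was called, lower (1.25%, where 13.4% of all genes were called). Leaving out any other animal left 2 to 5 called (2.5% to 6.25%, where 13.5% to 18.4% of all genes were). Ndufa8 lost its call without phenobarbital replicate 2 or 3, and Cox6a2 without control replicate 2 or 3 or phenobarbital replicate 2. Ndufs8 and Uqcrc2 kept theirs in 3 of the 10 omissions and Cox7b2 in 2, while Ndufb11, Uqcrc1 and Atp5h were called only without control replicate 4.

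**Figure D3:**
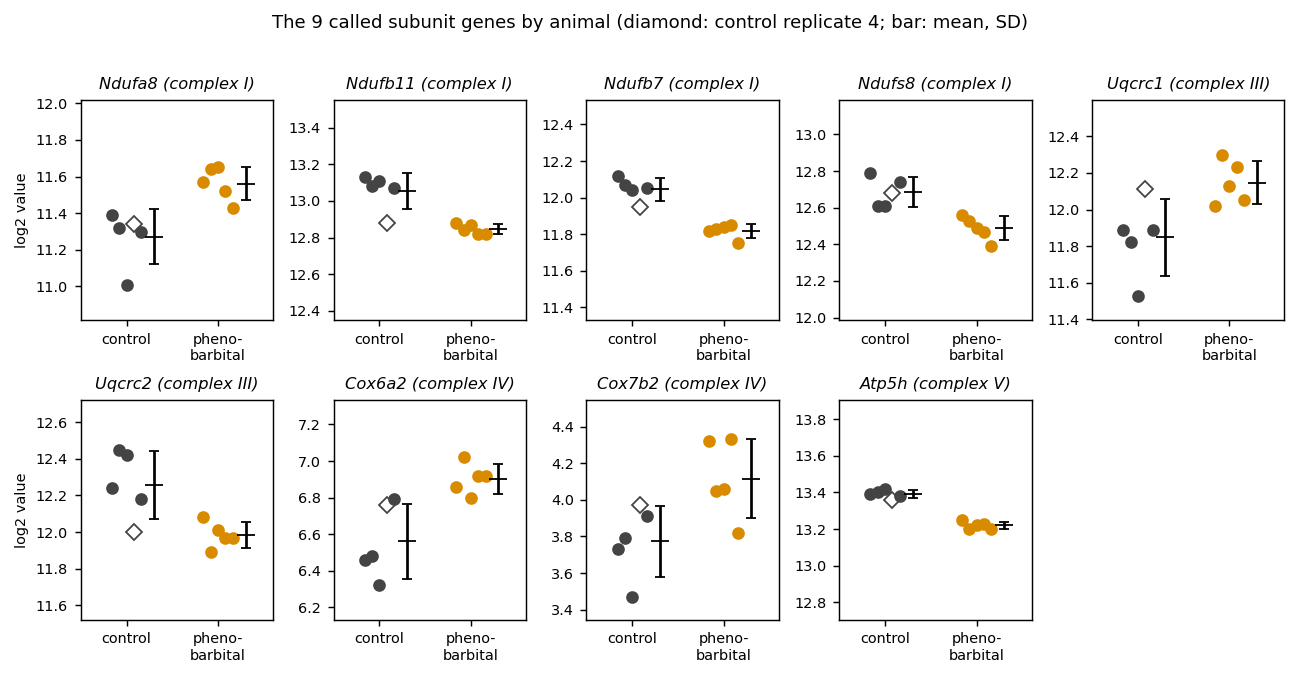
Log2 value (y axis, on its own range in each panel) of the 9 called subunit genes in every animal, with the mean and SD (n = 5) of each group. The open diamond is control replicate 4, which lies within the treated range for Ndufb11, Uqcrc1, Uqcrc2 and Cox7b2. For Atp5h and Ndufb7 all treated values lie below all control values.

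Among the subunits, the sign of a change went with the kind of probe set that measured it, a pattern noticed after the values were seen. Affymetrix marks probe sets that also match other transcripts of the gene, of its family or of unrelated genes with the suffixes a, s and x, and leaves single-transcript probe sets unmarked. Of the 38 subunits read from a single-transcript probe set, 27 (71.1%) had a change above 0, with a median of 0.04. Of the 42 read from a marked one, 12 (28.6%) did, with a median of -0.05. Of the 9 called genes, all 5 lower ones and Uqcrc1 were read from marked probe sets and the other 3 higher ones from single-transcript ones. Among subunits with a mean level of 10 or more the shares above 0 were 69.0% of 29 and 29.3% of 41. Over all genes at that level they were 44.6% of 1183 and 42.4% of 818, so the types differed little there. Under median centring the marked group had 18 of 42 above 0 and the single-transcript group 29 of 38, and under quantile normalisation 11 and 25. With the spike-in set as a block 12 of the 38 single-transcript subunits (31.6%, median -0.04) and 6 of the 42 marked ones (14.3%, median -0.07) were above 0, so the order of the types was the same but the median of the single-transcript group turned below 0.

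The same held within a gene. For 26 subunits with both kinds of probe set at a mean level of 10 or more, the single-transcript change was above the mean of the others in 23, with a median difference of 0.086 and a range of -0.01 to 0.40. Among all such genes it was above in 205 of 284 (72.2%), with a median difference of 0.084, so this is not particular to the subunits. Ndufs7, a core iron-sulfur subunit, changed by -0.16 on its marked probe set and by 0.23 on its single-transcript one. Ndufb7, lower by 0.23 on the called probe set, changed by 0.10 on the other, without a call. The 6 probe sets of Ndufs8 gave -0.20, -0.18, 0.05, 0.11, 0.07 and 0.09. For Atp5a1 a probe set at a mean level of 8.53 changed by -0.76 (adjusted p = 0.00504 over all probe sets), against 0.20 on its brightest one. Of the 48 subunits with several probe sets, 30 had changes of both signs. Tested singly over all probe sets, 5 of the 163 subunit probe sets were higher and 12 lower, where 8.2% and 12.1% of all probe sets were. Of the 6 called subunits with several probe sets, Atp5h and Uqcrc2 had the same sign on all of them, and in none was another probe set called in the same direction. Ndufa8, Uqcrc1 and Cox7b2 had 1 probe set each.

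**Figure D4:**
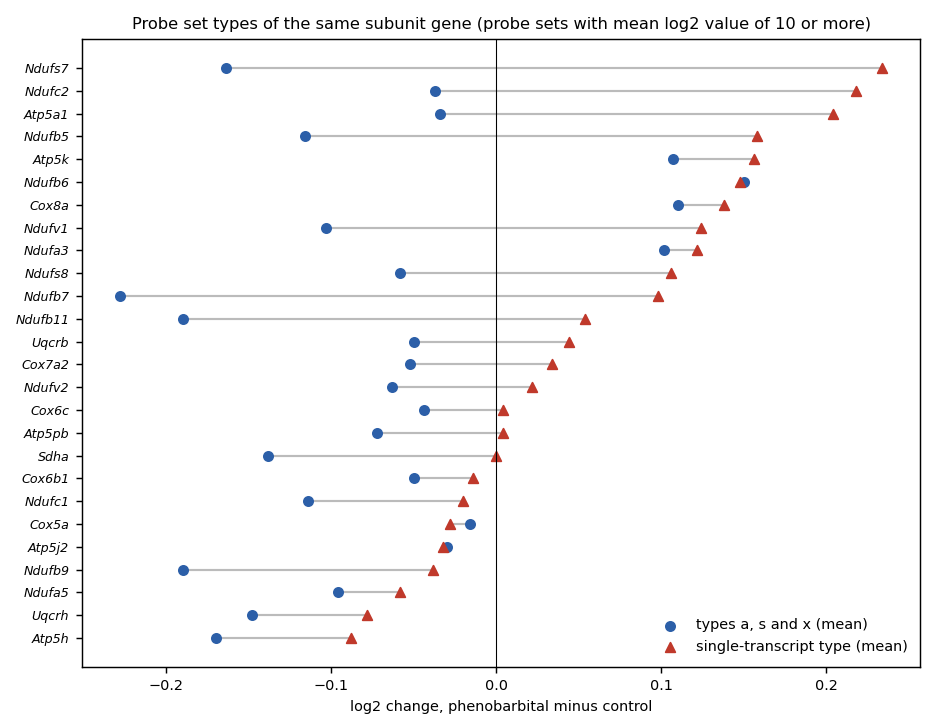
Log2 change (phenobarbital minus control, x axis) of 26 subunit genes as read by their single-transcript probe sets (red triangles) and by their probe sets of types a, s and x (blue circles), each the mean over probe sets with a mean log2 value of 10 or more. A grey line joins the readings of a gene. The triangle lies to the right of the circle in 23 of 26 genes, by a median of 0.086.

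The genes around the complexes were read from lists of their functions. Of 43 assembly factors, 1 was higher and 5 lower (2.33% and 11.6%, against 9.02% and 11.3% of all genes), with a median of -0.04. Ttc19, a complex III assembly factor, fell by 0.32, Fastkd2, which acts on mitochondrial RNA, by 0.29 and Sco1, a copper chaperone of complex IV, by 0.26; Cox18, which inserts the COX2 protein into the membrane, rose by 0.32 (0.05 with the block). The 6 subunits outside the symbol rule had no call and a median of 0.02, and Cycs, cytochrome c itself, changed by 0.00 without a call. Of 26 names of mitochondrially encoded subunits 1 gene was measured: ND5, the proton-pumping subunit of complex I, was 13.87 ± 0.11 in controls and 13.74 ± 0.09 in treated livers (SD, n = 5 each), with an adjusted p of 0.200. Among 12 carriers of nucleotides and protons, Slc25a4, the muscle form of the ADP/ATP carrier, fell by 0.41, from 7.44 ± 0.15 to 7.02 ± 0.27 (SD, n = 5 each), a call that ended when any of control replicates 2 and 5 and treated replicates 1, 4 and 5 was left out, while Slc25a5, the form that liver uses, changed by 0.06 without a call. Of 46 proteins of the large mitochondrial ribosomal subunit, 5 were higher and 4 lower (19.6% called, close to the 20.3% of all genes), with a median of 0.07.

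Upstream of the chain are the enzymes that supply its electrons. Of 17 genes of the tricarboxylic acid cycle and its entry, 5 were higher (29.4%, against 9.02% of all genes) and 1 lower (Fh1, fumarase; 5.88% against 11.3%), with a median of 0.05. Cs encodes citrate synthase, an enzyme whose activity is often used as a mark of mitochondrial content, but RNA alone was measured here. It read 10.67, 10.59, 10.42, 10.78 and 10.67 in controls and 10.86, 11.11, 11.26, 11.15 and 10.96 in treated livers. All treated livers were above all controls, and the gene rose by 0.44 (SE 0.089, adjusted p = 0.00545), or by 0.29 with the block. The calls of this list were not separable from the spike-in split. Idh2, mitochondrial isocitrate dehydrogenase, rose by 0.36 (a call lost without control replicate 3 or phenobarbital replicate 2 or 4), Pdhx, a structural part of pyruvate dehydrogenase, by 0.31 and Idh3a, of the NAD-linked isocitrate dehydrogenase, by 0.30.

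The regulators of these genes included the largest changes described here apart from Cyp2b10. Of 24 regulators of mitochondrial biogenesis, 9 were lower (37.5%, against 11.3% of all genes) and 1 higher (Esrrb; 4.17% against 9.02%), with a median of -0.20. Ppargc1a read 8.29, 8.83, 8.58, 7.77 and 7.89 in controls and 7.39, 6.73, 6.97, 6.56 and 6.61 in treated livers, without overlap, and fell by 1.42 (SE 0.203, adjusted p = 0.000959). Ppargc1b and Ppara, the fatty acid receptor, each fell by 0.87, and Sirt1, a deacetylase that acts on PGC-1alpha, by 0.85. With the block none of the 24 was called, and these 4 changed by -0.92, -0.81, -0.52 and -0.52. Of the factors whose motifs were searched, Yy1 fell by 0.36, Nrf1 changed by 0.04 (adjusted p = 0.734), Esrra by 0.25 (adjusted p = 0.150), and Gabpa by -0.31 (adjusted p = 0.0718). Gabpa in control replicate 4, at 9.42, was below all treated livers, and its blocked change was 0.10. Tfam, which packages and transcribes mitochondrial DNA, changed by -0.20 with an adjusted p of 0.0625. Set beside these values, the changes of the subunit genes on their brightest probe sets ran from -0.42 to 0.34. Dimmer probe sets of Atp5a1 and Ndufa12, at mean levels of 8.53 and 4.74, changed by -0.76 and -0.74. Whether the regulators' levels bear on the subunits was not tested.

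**Figure D5:**
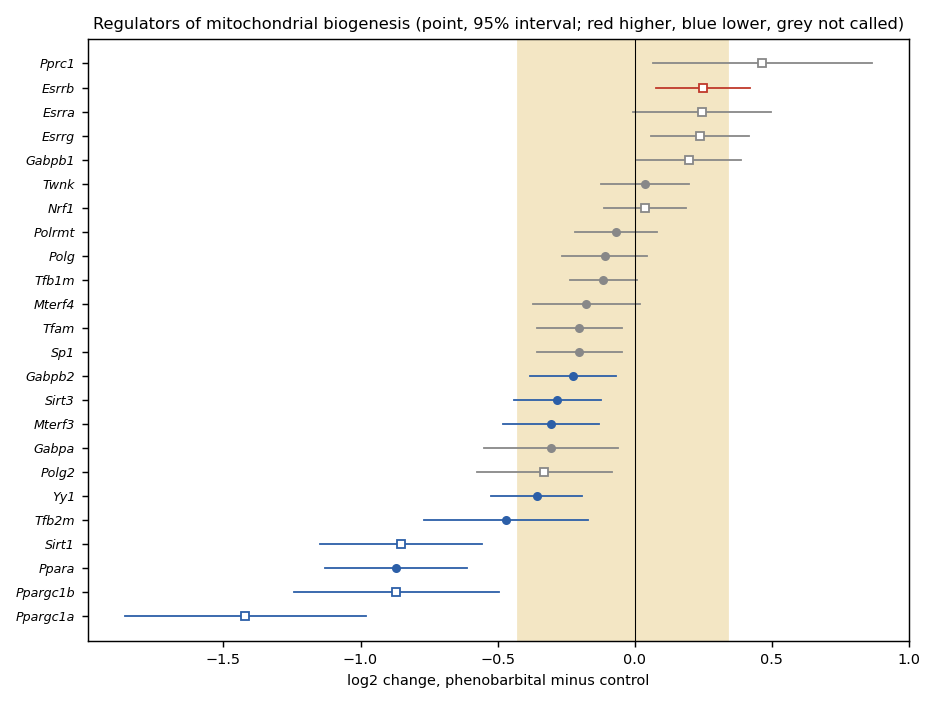
Log2 change (phenobarbital minus control, x axis) of 24 regulators of mitochondrial biogenesis, with 95% intervals from limma; red was called higher, blue lower and grey not called, and open squares mark genes with a mean log2 value below 8. The shaded band spans the changes of the 80 subunit genes, from -0.42 to 0.34. Ppargc1a (-1.42), Ppargc1b, Ppara (-0.87 each), Sirt1 (-0.85) and Tfb2m lie to the left of the band.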

How the data were processed

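Whole-liver total RNA was copied from its poly-A tail and labelled with biotin for Affymetrix arrays, per the labels' protocols, so probe sets near the 3′ end are favoured. The submitters' processing notes name GCOS, with no version; how probes were summarised and normalised is not given in the sources used. The authors deposited log2 values from 2.34 to 15.13, the scale being read from this range; quartiles differed between arrays by at most 0.16, under the 0.3 set for renormalising, so values were used as deposited. Of 45101 probe sets, 64 were controls, 34945 had 1 gene symbol, 932 had several and 9160 had none listed; the annotation is the platform's, and RefSeq (GRCm38.p6) changed 0 symbols. Each gene took its probe set with the highest mean. Groups and replicates came from the labels, 1 array per animal, and n = 5 per group limits the precision.

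Groups were compared with limma 3.58.1 in R 4.3.3 (lmFit, eBayes, two-sided, Benjamini-Hochberg over 18193 genes); the fit was tested on simulated data. The alternatives were quantile normalisation, median centring, brighter genes, the mean of probe sets, single-transcript probe sets, a trended robust variance, array weights, blocks of replicate number and of spike-in set, the spike-in mean as a covariate, and each animal left out. The members, the lists and the spike-in alternatives were chosen with earlier results of these data known, and the levels of 8 and 10 and the probe set types after the values were seen. Named genes are, per complex, up to 4 called genes with the largest change, the 2 with the highest mean and the 2 uncalled with the largest change; all complex II genes, tissue-restricted isoforms, Cox4i1, Cycs, Cyp2b10 and 7 regulators; and up to 4 called genes per other list. Others were named after their values were seen. Marker sums are log2 of summed linear values. Python 3.11.15 and matplotlib 3.10.9 made the figures.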

Additional observations from a re-analysis of the deposited data

Results flagged for a closer look

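Of 142 groups of 5 values (71 named genes in each group), 8 held a value whose gap to the nearest other was, as a share of the group's range, above the 95% critical value of Dixon's test; chance gives about 1 in 20. Among the subunits, Ndufa8 was 11.01 in control replicate 3 against 11.30 to 11.39 in the other controls, Ndufb11 was 12.88 in control replicate 4 against 13.07 to 13.13, and Uqcrq was 13.17 in phenobarbital replicate 2 against 13.12 to 13.13. Mrpl38, a mitochondrial ribosomal protein, was 9.65 in control replicate 4 against 9.22 to 9.30. Alas2, of erythroid haem synthesis, was 10.86 in the same animal against 10.43 to 10.53. Gabpa was 9.68 in phenobarbital replicate 3 against 9.45 to 9.51, and Reln, a stellate cell marker, was 10.02 in that animal against 9.57 to 9.64. Dcn, a fibroblast marker, was 10.75 in phenobarbital replicate 4 against 11.14 to 11.25. Control replicate 4, the control with low spike-ins, thus accounts for 3 of the 8.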

How the results depend on the processing

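The median change of the subunits ranged from -0.05 to 0.03 over the alternatives, while the calls moved. Against 4 subunits higher and 5 lower, quantile normalisation gave 3 and 8, median centring 6 and 1, the brighter genes alone 5 and 11 of 74 tested, single-transcript probe sets 4 and 2 of 65, trend and robust variance 8 and 12, and array weights 10 and 8. Of all called genes 44.4% were higher; this was 60.0% with quantile normalisation, 58.8% with centred medians and 31.8% for the brighter genes. With the spike-in set as a block 143 genes and 0 subunits higher or lower were called, and 0 subunits had an unadjusted p under 0.05; with the spike-in mean as a covariate 129 genes and 0 subunits were. Leaving out 1 animal gave 0 to 13 subunits higher, 1 to 9 lower, and 2431 to 4610 genes in all. The replicate numbers of the groups did not pair the animals (correlations of same-numbered deviations -0.02 to 0.12). With them as a replicate block 4 subunits were higher and 2 lower (7.5% called), and 3664 genes were called (20.1%). Among named genes called in the main fit or the alternative, the sign turned for Atp5a1 with the mean of its probe sets (-0.20). It turned for Ndufb11 (0.054), Ndufb7 (0.098) and Ndufs8 (0.106) on single-transcript probe sets. For Mrpl34 and Mrpl38 it turned with the block (-0.062, -0.054) and the covariate (-0.0546, -0.0344). With the covariate it also turned for Uqcrc1 (-0.0124) and Uqcrc2 (0.0402). In named genes called in neither fit it turned for 17 with the block and 16 with the covariate. The 71 named genes that these come from include the called ones, so 71 is not the number called in neither fit. The probe set alternatives change the sequence measured; otherwise the cause was not tested.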
